A study of Mus musculus with 12 samples.

Results

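The 9 genes described here encode enzymes that make haem (Alas1, Alad, Uros, Urod, Cpox, Ppox and Fech) or break it down (Hmox1 and Blvrb). They were chosen by name, and a probe was assigned to a gene through its RefSeq accession. The array holds 11 such probes, 2 for Alas1, 2 for Fech and 1 for each of the other genes. All 11 were well above background on all 12 arrays, and the 9 genes belong to 12793 named genes with a tested probe. Expression was measured on 1-colour Agilent arrays in primary hepatocytes of C57BL/6 mice. The 4 groups were PGC-1alpha-/- cells with an adenovirus for the short hairpin RNA labelled shTLS, PGC-1alpha-/- cells with a control hairpin, PGC-1alpha+/+ cells with shTLS and PGC-1alpha+/+ cells with the control hairpin. Each group held 3 arrays. PGC-1alpha, the product of Ppargc1a, is a transcriptional coactivator. Insulin (100 nM) and dexamethasone (100 nM) were in the medium of all 12 cultures, the virus was given at a multiplicity of 5, and cells were harvested 24 h after infection. No culture without virus was included. Each of the 6 mice gave 1 culture per vector, and same-numbered arrays lay on the same slide. A group had the same slide position every time, which cannot be told apart from the group.

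Haem synthesis starts in the mitochondrion, where ALAS joins glycine and succinyl-CoA, continues in the cytosol and ends in the mitochondrion, where ferrochelatase inserts iron. In liver the first step, carried out by ALAS1, sets the rate, and haem itself represses it. PGC-1alpha is known to induce Alas1 in fasted mouse liver together with the factors NRF1 and FOXO1, so the comparison of genotypes bears on a known target. It was made in cultures with insulin and dexamethasone, and the response to fasting was not tested. Haem oxygenase 1 opens the ring and releases iron and biliverdin, which biliverdin reductases turn into bilirubin.

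The Ppargc1a probe differed by -0.18 on the log2 scale between -/- and +/+ cells, averaged over vectors (SE 0.52, adjusted p = 1.00, limma with Benjamini-Hochberg adjustment over all tested probes). Since the deleted stretch is not given in the labels, the probe is no check of the genotype. Hepatocyte markers were present on all arrays, 8 of 8 being above background throughout, and their mean log2 level was 10.64 to 11.27 on the 6 shTLS arrays, against 11.00 to 13.01 on the 6 control arrays. Erythroid markers, which matter for a haem pathway, averaged only 2.51 to 3.68 across all 12 arrays, and 1 of 10 was above background on every array, while Hemgn and Rhag were above it on none. Before normalization, shTLS arrays were dimmer. The 75th percentile of their signal was 344 to 635, against 810 to 1064 on control arrays. Values below are the authors' quantile-normalized log2 signals, and a difference is given on that log2 scale. Signals of different probes are not compared with each other.

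Of the 9 haem genes, judged by the brighter probe where there are 2, 0 passed the test for shTLS against control averaged over both genotypes, where 7.78% of all 24965 tested probes were called at an adjusted p under 0.05. At an unadjusted p under 0.05 there was 1 of 9, Fech, against 27.9% of all probes. With the replicate number as a block, which removes what arrays of the same number share, 28.8% of all probes and 1 of 9 haem genes, again Fech, were called. Of the 9 differences 7 were negative, with a median of -0.09 beside a median of -0.02 over all probes. Fech had the largest of the 9 differences, at -0.72, and Cpox the highest, at 0.30. The plot of all member values by array shows how the groups lie to each other.

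**Figure D1:**
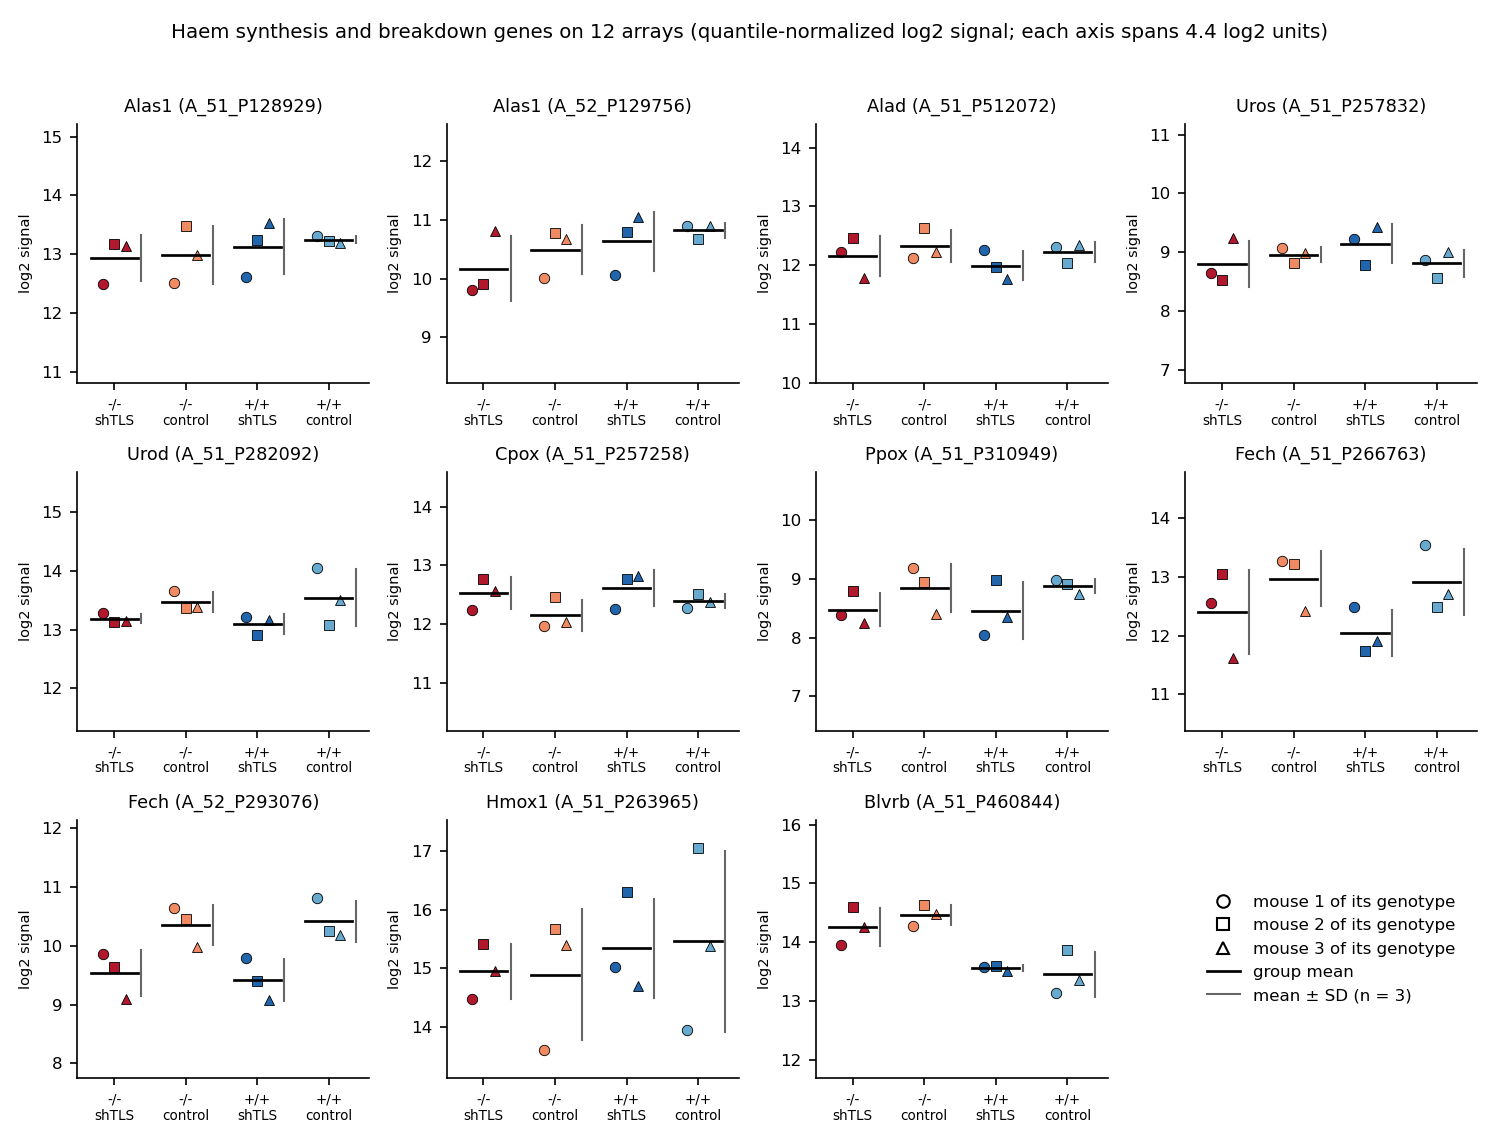
Quantile-normalized log2 signal (y axis, 4.4 log2 units high in every panel) of the 11 probes of the 9 genes in -/- shTLS, -/- control, +/+ shTLS and +/+ control cells. Each symbol is 1 array and its shape is the mouse, the black line is the group mean and the grey line the mean ± SD (n = 3). Fech sits lower in both shTLS groups and Blvrb sits higher in both -/- groups, while Hmox1 spreads over 3.42 log2 units.

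Alas1, the gene of the rate-setting enzyme, showed no difference between groups that passed the test. The group means of Alas1 were lowest in -/- shTLS and highest in +/+ control cells by both probes. They were 12.94 and 13.24 by the brighter probe, and 10.17 and 10.82 by the second. Its brighter probe (A_51_P128929) read 12.49, 13.18 and 13.14 in -/- shTLS cells, against 12.51, 13.49 and 12.98 in -/- control cells. In +/+ cells it read 12.61, 13.24 and 13.53 with shTLS, against 13.31, 13.23 and 13.19 with the control hairpin. The groups overlapped, and mouse 1 gave the low values of 3 groups but the highest value of +/+ control cells. The averaged difference of shTLS against control was -0.09 (SE 0.24, 95% interval -0.61 to 0.43, adjusted p = 0.836), with 3 of 6 mice lower. The sign of this difference turned with scaling to the 75th percentile, where it was 0.02. The second probe (A_52_P129756) differed by -0.25 (SE 0.25, adjusted p = 0.536), and both probes correlated with r = 0.804 over the 12 arrays.

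The start of Alas1 is shown because the promoter of this gene is the place where NRF1 and PGC-1alpha are known to act on the pathway. The window runs from 250 bases before to 50 bases after an annotated start, at chr9:106247681-106247980 on the minus strand of GRCm38.p6 (RefSeq), and capitals mark matches to GCATGCGC, the core of the NRF1 element.
Alas1 promoter: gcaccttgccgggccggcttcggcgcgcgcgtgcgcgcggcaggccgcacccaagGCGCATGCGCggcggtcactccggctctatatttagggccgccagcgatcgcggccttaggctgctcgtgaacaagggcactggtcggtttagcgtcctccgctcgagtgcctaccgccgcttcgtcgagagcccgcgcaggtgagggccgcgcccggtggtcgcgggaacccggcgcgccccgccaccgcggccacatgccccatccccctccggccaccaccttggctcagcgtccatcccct
The core was found on both strands, in overlapping matches that begin 195 and 193 bases before this start. Alas1 has another annotated start, and the same matches begin 29 and 31 bases after that one. The core is present in 2.71% of 32851 promoter windows of the same length. Of the 11 windows of 7 haem genes that were searched, the core was found only in those of Alas1, whose 2 windows overlap and share the same element. No window of Hmox1 or Fech was searched, so the matches and their absence below say nothing of these genes. The shorter NRF1 letters TGCGCA (7.76% of windows) were found in Cpox, and the E-box CACGTG (7.15%) in Alad, Uros and Urod. The antioxidant response element TGACNNNGC (12.4%), the cAMP response element TGACGTCA (1.79%), the forkhead element TGTTTAC (3.65%) and the heat shock element GAANNTTC (7.86%) had 0 matches in these windows. All motifs were searched on both strands, and a match is a description of letters only.

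The cytosolic steps after ALAS1 moved little. Alad, whose enzyme joins pairs of aminolaevulinic acid molecules into porphobilinogen, ranged from 11.76 to 12.63 over all arrays and differed by -0.20 with shTLS (SE 0.19, adjusted p = 0.511). Uros, whose enzyme closes the ring as uroporphyrinogen III, ranged from 8.52 to 9.43 and differed by 0.09 (SE 0.19, adjusted p = 0.794). In Uros all 3 mice of +/+ were higher with shTLS, by 0.23 to 0.43, against 1 of 3 -/- mice, but the difference between both effects did not pass the test (-0.49, SE 0.39, adjusted p = 1.00). Urod, whose enzyme trims the side chains of that ring and is impaired in porphyria cutanea tarda, read 13.28, 13.13 and 13.15 in -/- shTLS cells, against 13.66, 13.37 and 13.38 in -/- control cells. In +/+ cells Urod read 13.22, 12.91 and 13.17 with shTLS, against 14.05, 13.08 and 13.51 with the control hairpin. It was lower with shTLS in 6 of 6 mice and did not overlap between both vectors in -/- cells, but the averaged difference of -0.36 did not pass the test (SE 0.19, adjusted p = 0.235, and 0.0873 with the replicate block). In -/- cells 1 of 9 genes, Urod, did not overlap between the vectors, beside 18.9% of all tested probes, and in +/+ cells this held for 0 of 9, beside 20%.

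The next enzymes return to the mitochondrion, and their 2 genes pointed opposite ways without passing the test. Cpox, whose enzyme oxidises coproporphyrinogen, ranged from 11.96 to 12.81 and was higher with shTLS in 5 of 6 mice, by 0.30 on average (SE 0.18, adjusted p = 0.301). Ppox, whose enzyme makes protoporphyrin, ranged from 8.04 to 9.19 and was lower in 5 of 6 mice, by an average difference of -0.39 (SE 0.22, adjusted p = 0.262). The sign of the Cpox and of the Uros difference turned with spike-in RNAs as the scale, at -0.44 and -0.70. That scaling moved the median of all probes to -0.72 for shTLS against control, so that Cpox then lay above that median and Ppox, at -1.18, below it.

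Fech, the gene of ferrochelatase, was lower with shTLS in 6 of 6 mice by both of its probes. The dimmer probe (A_52_P293076) read 9.86, 9.64 and 9.10 in -/- shTLS cells, against 10.64, 10.45 and 9.99 in -/- control cells. In +/+ cells it read 9.80, 9.41 and 9.08 with shTLS, against 10.82, 10.25 and 10.19 with the control hairpin. All 6 shTLS arrays lay below all 6 control arrays, and 5.79% of all tested probes likewise did not overlap, in either direction. By this probe Fech fell by 0.91 on the log2 scale over both genotypes, which is 1.88-fold lower (SE 0.22, 95% interval -1.40 to -0.42, adjusted p = 0.035, and 0.00142 with the replicate block).

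The brighter Fech probe (A_51_P266763) read 12.55, 13.04 and 11.62 in -/- shTLS cells, against 13.27, 13.21 and 12.43 in -/- control cells. In +/+ cells it read 12.49, 11.75 and 11.90 with shTLS, against 13.54, 12.49 and 12.71 with the control hairpin. Here the vectors overlapped, with -/- mouse 3 below the other -/- mice under both vectors. Its averaged difference was -0.72 (SE 0.30, 95% interval -1.38 to -0.05), with an adjusted p of 0.154 without a block and 0.0475 with the replicate block. With the mouse as a fixed block, which pairs the cultures of a mouse, it was 0.0102, in a fit that called 8196 of 24965 probes. The 2 Fech probes correlated with r = 0.878 over the 12 arrays.

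Within each genotype Fech did not pass the test without a block, and with the replicate block it passed by the dimmer probe alone. In -/- cells the difference was -0.83 by that probe (SE 0.32, adjusted p = 0.344, and 0.029 with the block), against -0.56 by the brighter probe (adjusted p = 0.621, and 0.327 with the block). In +/+ cells it was -0.99 by the dimmer probe (SE 0.32, adjusted p = 0.175, and 0.0101 with the block), against -0.87 by the brighter one (adjusted p = 0.34, 0.113 with the block, and 0.0311 with the mouse as a fixed block). Over all tested probes, shTLS against control called 0.773% in -/- cells without the block and 5.86% with it, and 0.989% in +/+ cells without the block and 12.5% with it. The brighter probes of the 9 genes gave 0 calls in each genotype, with and without this block. The averaged call of the dimmer probe without a block was lost when any of 7 arrays was left out, with adjusted p of 0.0636 to 0.0957. These were replicates 1 and 2 of -/- control, 2 and 3 of -/- shTLS, 1 of +/+ control, and 2 and 3 of +/+ shTLS. Hepatocyte markers moved the same way, being lower with shTLS in 8 of 8 genes on average with a median of -0.70, and of these Ass1 passed the test (adjusted p = 0.0442). Less RNA per hepatocyte and fewer hepatocytes cannot be told apart in such cultures, and the part of either in the Fech difference was not tested.

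**Figure D2:**
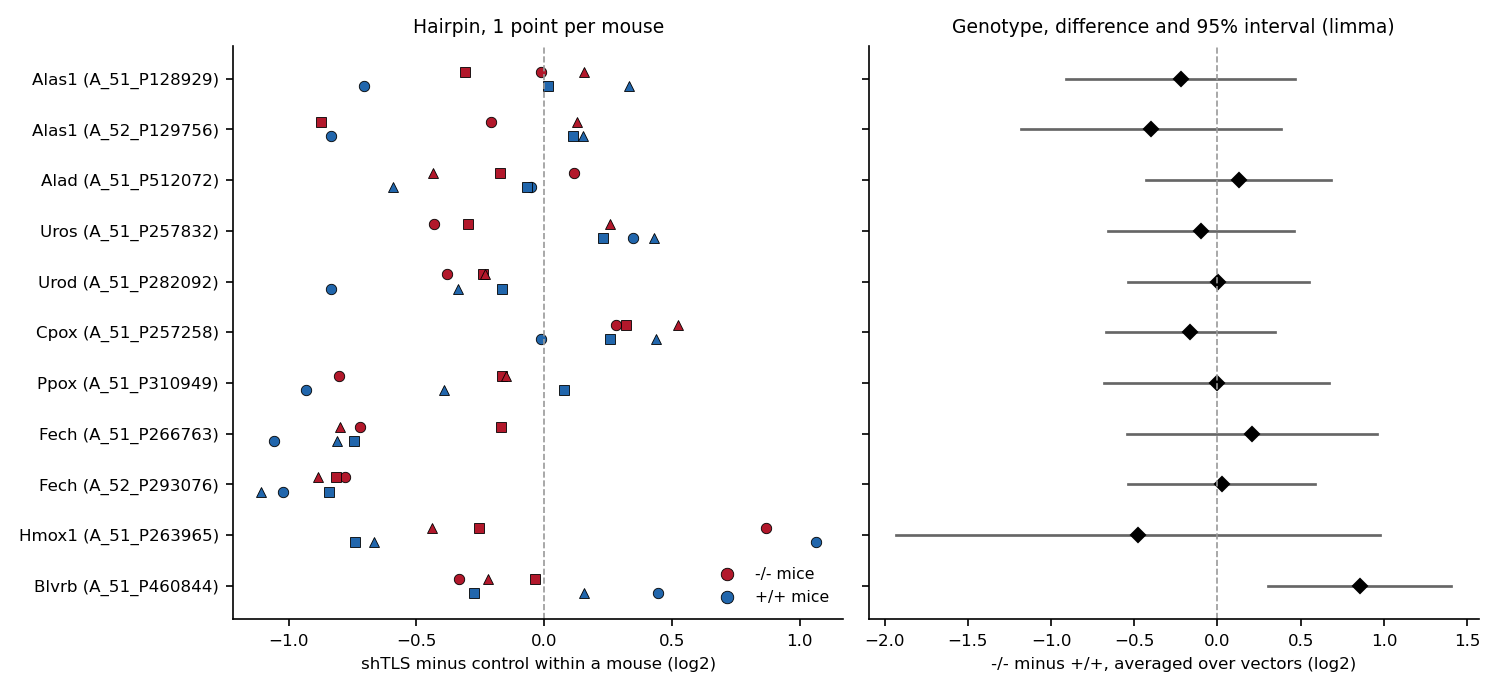
Left, shTLS minus control within each mouse (log2, x axis) for the 11 probes, with -/- mice in red and +/+ mice in blue and the symbol shape for the replicate number. Right, -/- minus +/+ averaged over vectors with its 95% interval from limma. Both Fech probes are below 0 in 6 of 6 mice, and the interval of Blvrb, 0.31 to 1.40, is the only interval of the 11 that leaves out 0.

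Hmox1, the inducible haem oxygenase that stress and free haem switch on, varied more between arrays of a group than between group means. It read 14.49, 15.42 and 14.95 in -/- shTLS cells, against 13.62, 15.67 and 15.39 in -/- control cells. In +/+ cells it read 15.02, 16.30 and 14.71 with shTLS, against 13.96, 17.04 and 15.37 with the control hairpin. The lowest values, 13.62 and 13.96, were those of mouse 1 of both genotypes with the control hairpin, and the highest, 17.04 and 16.30, were those of +/+ mouse 2. Its range of 3.42 log2 units, or 10.7-fold, was the widest of the 11 probes.

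With shTLS, Hmox1 was higher in mouse 1 of both genotypes, by 0.87 in -/- cells and 1.06 in +/+ cells, and lower in the other 4 mice, by differences of -0.74 to -0.26. The averaged difference was -0.03 (SE 0.55, 95% interval -1.23 to 1.17, adjusted p = 0.978), and its sign turned with scaling to the 75th percentile (0.19). It was 0.37 without replicate 2 of +/+ control cells and as low as -0.40 when another array was left out. The replicate number is also the slide, and the part of either in this pattern was not tested. The Ppargc1a probe was also highest in +/+ mouse 2, at 10.99 with shTLS and 10.39 with the control hairpin. The control array of that mouse had the most spots flagged as outlier or non-uniform (206) and the fewest probes above background (22706). Its shTLS array had 83 and 25339.

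Blvrb, the gene of biliverdin reductase B, which also acts as a flavin reductase, was higher in -/- cells on average but did not pass the test. It read 13.94, 14.59 and 14.25 in -/- shTLS cells, against 13.58, 13.60 and 13.50 in +/+ shTLS cells. With the control hairpin it read 14.28, 14.63 and 14.47 in -/- cells, against 13.14, 13.87 and 13.35 in +/+ cells. All 6 arrays of -/- cells lay above all 6 arrays of +/+ cells, which made Blvrb the 1 of 9 genes without overlap, beside 0.733% of all tested probes that did not overlap in either direction. The difference was 1.01 with the control hairpin (SE 0.27, adjusted p = 0.673, and 0.135 with the replicate block) and 0.70 with shTLS (SE 0.27, adjusted p = 1.00, and 0.459 with the block). Averaged over vectors Blvrb was 1.81-fold higher in -/- cells (difference 0.85, SE 0.25, 95% interval 0.31 to 1.40), but this did not pass the test across all probes (adjusted p = 0.943, and 0.0626 with the block). Its response to shTLS was -0.04 (SE 0.19, adjusted p = 0.9), with 4 of 6 mice lower, and 0.08 with scaling to the 75th percentile.

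Markers of macrophages, which also break down haem, were higher in -/- cells without passing the test. Markers of other cell types went either way. All 13 tested of 14 macrophage and Kupffer cell markers on the array were higher in -/- cells, with a median difference of 2.06, and 0 of 13 passed the test in limma. At an unadjusted p under 0.05 there were 0 of 13 without and 10 of 13 with the replicate block, beside 2.76% and 13.2% of all probes. Their mean log2 level was 6.65 to 9.73 in -/- shTLS cells, against 5.57 to 7.90 in +/+ shTLS cells. With the control hairpin it was 7.50 to 10.59 in -/- cells, against 6.00 to 8.97 in +/+ cells. Of the 14 markers 9 were above background on every array and 0 were below it on every array. With shTLS they were lower in 13 of 13 on average, with a median of -1.10 and 3 of 13 called with the block, under which 28.8% of all probes were called. Of 6 tested stellate cell and fibroblast markers 5 were higher in -/- cells, with a median of 0.85, and of 9 endothelial markers 7 were, with a median of 0.67. Of these, 0 of 6 and 0 of 9 passed the test in limma, and at an unadjusted p under 0.05 there were 0 of either without the block, and 2 of 6 and 3 of 9 with it. The mean level of the 9 stellate cell and fibroblast markers was 5.85 to 10.04 on the arrays of -/- cells, against 6.23 to 8.82 on those of +/+ cells. For the endothelial markers it was 7.16 to 9.26, against 7.22 to 7.84. In 3 other lists more markers were lower in -/- cells than higher, and 0 passed the test. This held for 4 of 6 cholangiocyte markers (median -0.37), 5 of 8 hepatocyte markers (median -0.20) and 2 of 3 tested erythroid markers (median -0.15). The part of any of these cell types in the Blvrb difference was not tested.

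**Figure D3:**
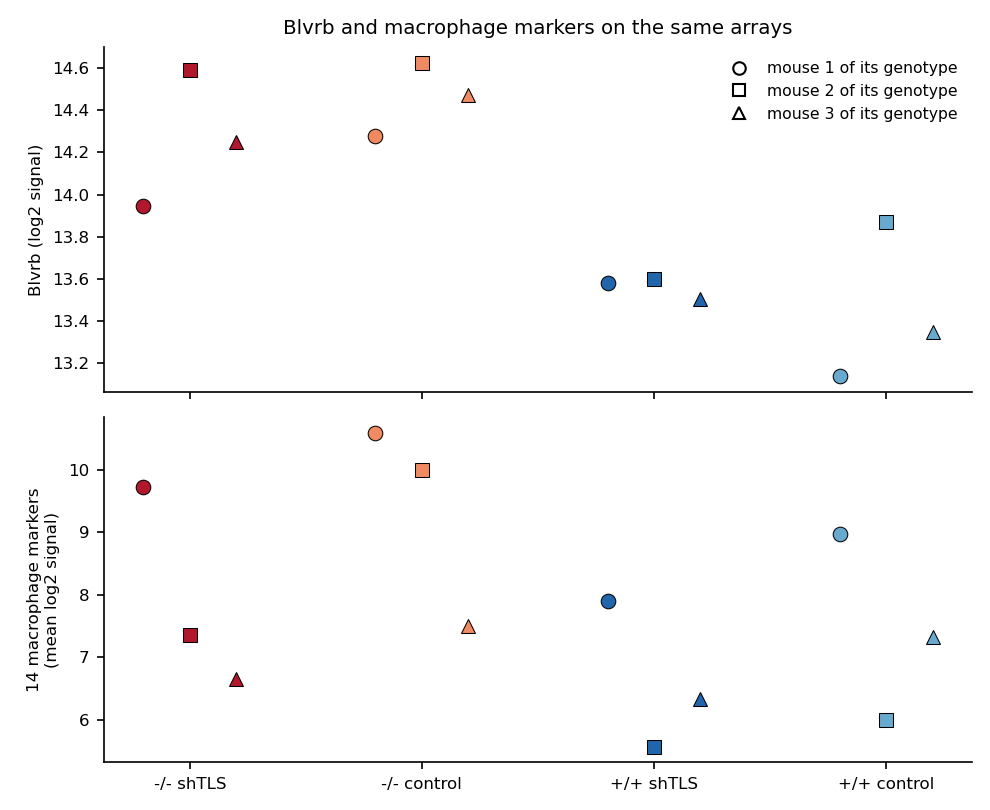
Log2 signal of Blvrb (top) and mean log2 signal of 14 macrophage and Kupffer cell markers (bottom) on each array, by group, with the symbol shape for the mouse. Blvrb lies at 13.94 or more on -/- arrays, against 13.87 or less on +/+ arrays, and the marker levels overlap, at 6.65 to 10.59 against 5.57 to 8.97.

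Between genotypes 0 of 9 haem genes passed the test with either vector or averaged over them, with or without the replicate block. Few probes did overall. With the control hairpin 0.0801% of all probes were called, or 0.172% with the replicate block, and with shTLS 0.0721%, or 0.156% with the block. Averaged over vectors these shares were 0.0881% and 0.505%. At an unadjusted p under 0.05 there was 1 of 9 haem genes, Blvrb, against 2.76% of all probes in the averaged comparison. With the block it was again 1 of 9, Blvrb, against 13.2% of all probes.

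Alas1 did not differ detectably between genotypes. By the brighter probe the values above gave a difference of -0.25 with the control hairpin (SE 0.33, 95% interval -0.99 to 0.48, adjusted p = 1.00) and -0.19 with shTLS (SE 0.33, adjusted p = 1.00). Averaged over vectors it was -0.22 (SE 0.31, 95% interval -0.91 to 0.46, adjusted p = 1.00). The second probe read 9.80, 9.91 and 10.81 in -/- shTLS cells, against 10.07, 10.79 and 11.05 in +/+ shTLS cells. With the control hairpin it read 10.01, 10.78 and 10.68 in -/- cells, against 10.90, 10.67 and 10.89 in +/+ cells. It was lower in -/- cells by the means of both vectors, but the averaged difference of -0.40 (SE 0.35, 95% interval -1.18 to 0.38, adjusted p = 1.00) did not pass the test either. With 3 arrays a group, each of these intervals held both negative and positive differences, so the values fixed neither the sign nor the size of the Alas1 difference.

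The remaining members had smaller differences between genotypes than Blvrb, each with an interval across 0. Averaged over vectors they were 0.13 for Alad, -0.10 for Uros, 0.0046 for Urod, -0.16 for Cpox and -0.0055 for Ppox. Fech differed by 0.21 and 0.03 in its 2 probes and Hmox1 by -0.48 (SE 0.66, 95% interval -1.93 to 0.97). The effect of shTLS did not differ between -/- and +/+ cells for any of the 9 genes at an adjusted p under 0.05, and neither did it for any tested probe (0% called by limma, with 66 of 24965 probes at an unadjusted p under 0.05 and 264 with the replicate block). With 3 arrays a group, the differences between both effects in the 9 genes ran from -0.49 in Uros to 0.31 in Fech, with standard errors of 0.37 to 1.09.

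Isoenzymes of the pathway that are not among the 9 genes did not pass the test with shTLS or were not tested. Alas2, the erythroid isoenzyme, was well above background on only 6 of 12 arrays and was not tested. Hmox2, the constitutive haem oxygenase, was lower with shTLS in 6 of 6 mice, but by a difference of -0.18 that did not pass the test (SE 0.17, adjusted p = 0.496). Blvra, the main biliverdin reductase of adult liver, differed by -0.0048 (SE 0.16, adjusted p = 0.988).

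Around the pathway, few genes passed the test with shTLS without a block, and the share that passed depended on the processing. From 10 lists of genes for haem transport, haem capture, iron supply, haem-using enzymes and the regulators of Alas1 and Hmox1, 80 of 85 genes were tested. In the averaged comparison 3 passed the test, 1 higher and 2 lower, which is 3.75% beside 7.78% of all probes. Blocking on the replicate number gave 15 calls (11 negative and 4 positive differences), which is 18.8% beside 28.8% of all probes. With spike-in scaling 57.5% of the 80 genes were called, beside 11553 of 24963 probes. Between genotypes 0 of 80 passed in the averaged comparison or with either vector in limma. At an unadjusted p under 0.05 there was 1 of 80 in the averaged comparison, beside 2.76% of all probes, and 12 of 80 with the block, beside 13.2%. Of 13 regulators of Alas1, 2 were called without and 6 with the block, beside these shares of 7.78% and 28.8%, and their median difference was -0.50 beside -0.02 over all probes. Nr1i3, which encodes CAR, a nuclear receptor that induces Alas1 in drug-exposed liver, averaged 8.54 ± 0.24 in -/- shTLS cells and 6.79 ± 0.18 in -/- control cells (SD, n = 3 each). In +/+ cells Nr1i3 averaged 8.88 ± 1.05 with shTLS and 6.77 ± 0.54 with the control hairpin. It rose 3.82-fold (difference 1.93, SE 0.33, adjusted p = 0.00752), in 6 of 6 mice.

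Other regulators of Alas1 went down or up without a change in Alas1 that could be detected. Cebpa, a liver-enriched factor, fell by 1.06 on the log2 scale in 6 of 6 mice (SE 0.23, adjusted p = 0.0237). This call was lost without replicate 2 of -/- control, replicate 1 of +/+ control or replicate 3 of +/+ shTLS (adjusted p of 0.0551 to 0.0677). With the block only, Nr1i2, which encodes the drug receptor PXR, fell by 1.85 (SE 0.42, adjusted p = 0.013). Nr1d1, which encodes the haem-binding clock repressor REV-ERB alpha, rose by 1.56 with the block (SE 0.35, adjusted p = 0.0122). Ppara and Nrf1 were the other 2 regulators called with the block, at -1.09 (adjusted p = 0.0317) and -0.50 (adjusted p = 0.0495). Cebpa and Nrf1 lie outside the rule for named genes and were named after their values were seen.

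**Figure D4:**
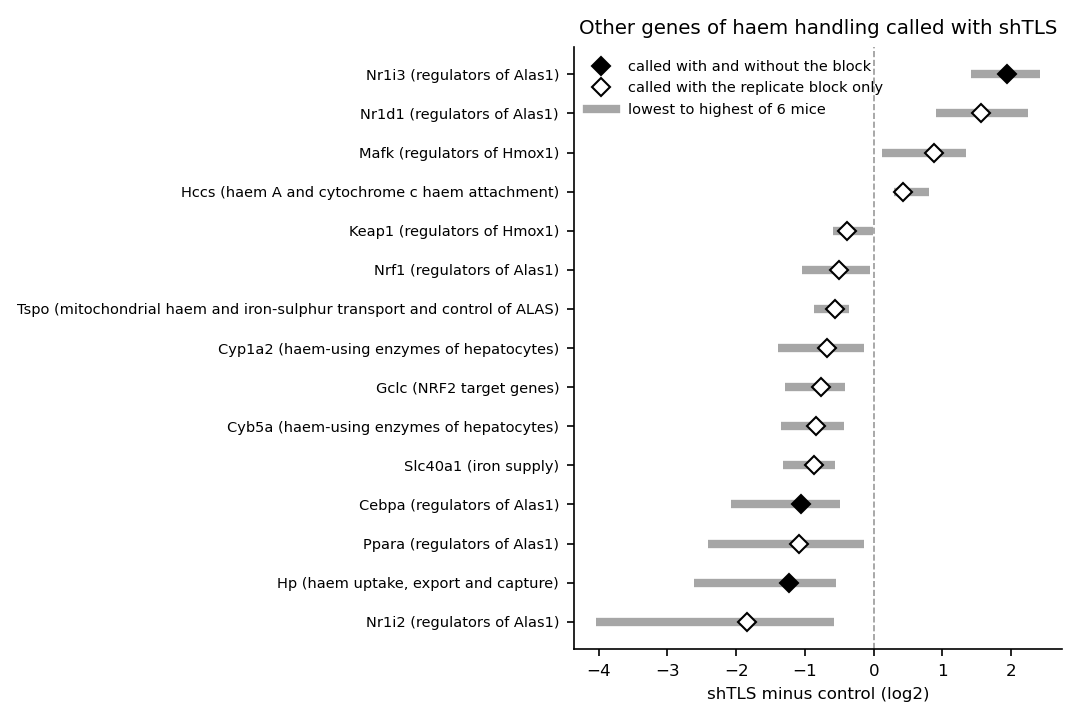
Difference shTLS minus control averaged over genotypes (log2, x axis) for the 15 genes of the 10 lists that passed the test with the replicate block, with the range over 6 mice as a grey bar. Filled symbols are the 3 genes that also passed without the block, and 4 of the 15 genes lie above 0.

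Among genes that handle haem outside the pathway, Hp, the plasma protein haptoglobin that binds free haemoglobin, fell by 1.24 in 6 of 6 mice (SE 0.29, adjusted p = 0.0298). This call depended on the scaling, with a difference of -0.56 and an adjusted p of 0.197 at the 75th percentile. It was also lost when any of 6 arrays was left out (adjusted p of 0.0575 to 0.0805), namely replicates 1 and 2 of -/- control, 2 of -/- shTLS, 1 of +/+ control, and 2 and 3 of +/+ shTLS. With the block only, Tspo, which encodes a porphyrin-binding protein of the outer mitochondrial membrane, fell by 0.56 (SE 0.12, adjusted p = 0.0106). Slc40a1, which encodes the iron exporter ferroportin, fell by 0.87 with the block (SE 0.13, adjusted p = 0.00497). Hccs, whose enzyme attaches haem to cytochrome c, rose by 0.42 with the block (SE 0.13, adjusted p = 0.037), and its sign turned with spike-in scaling (-0.37).

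Of 14 tested haem-using enzymes 12 were lower with shTLS on average, with a median of -0.28, and 2 were called with the block, under which 28.8% of all probes were called. These were Cyb5a, cytochrome b5, at -0.84 (adjusted p = 0.00905) and Cyp1a2 at -0.68 (adjusted p = 0.0265). Of 8 regulators of Hmox1, Mafk, a small Maf protein that pairs with BACH1 and NRF2, rose by 0.87 (adjusted p = 0.0251) and Keap1, the inhibitor of NRF2, fell by 0.39 (adjusted p = 0.0486), both with the block, so that 2 of 8 were called beside the same 28.8%. Of 8 NRF2 target genes other than Hmox1, Gclc, a subunit of glutamate-cysteine ligase, fell by 0.76 with the block (adjusted p = 0.0316), as the 1 of 8 called. Without the block 0 of 8 passed in limma, and 1 of 8 had an unadjusted p under 0.05.

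The 9 genes did not rise and fall as a set across the 12 arrays. Over 36 pairs of genes Pearson's r, given as a description, ran from -0.68 between Urod and Hmox1 to 0.77 between Alad and Fech. Fech and Urod followed with 0.75, and Alas1 and Cpox with 0.67. Of 12792 other named genes, those with patterns most like Alas1 were Ahcy (r = 0.917), Tmed5 (r = 0.915), Lrtm2 (r = 0.876), Cort (r = 0.876) and Cdh16 (r = 0.860). Most like Hmox1 were Crct1 (r = 0.967), Il12rb1 (r = 0.966), Dusp14 (r = 0.965), Neurl1a (r = 0.945) and Kctd9 (r = 0.944). These arrays share mice, slides and groups, so such values carry no test.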

How the data were processed

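RNA of 12 hepatocyte cultures was hybridized to 1-colour arrays, 4 to each of 3 slides, and read with Feature Extraction 10.1.1.1, per the labels' protocols. The deposited array files hold background-subtracted intensities and, in other columns, 0 or 1 flags. The authors set signals below 1 to 1 and quantile normalized them, per the labels' protocols, and the deposited table of log2 values was used here. Values recomputed from the intensities correlated with it by at least 0.99997 per array. Each array held 22706 to 26680 of 41174 probes above background and 0 saturated spots, and the number of arrays limits the precision.

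Accessions gave symbols to 24367 probes and none to 16807 (GRCm38.p6 annotation, used for names and promoter windows). Tested were 24965 probes well above background on all 3 arrays of a group. Differences came from limma 3.58.1 in R 4.3.3 (statmod 1.5.0), 4 group means in 1 fit of 12 arrays, two-sided, with calls at an adjusted p under 0.05 (Benjamini-Hochberg). For the genotype difference over both vectors, the mouse was a random block (correlation 0.584). Source names give the mouse behind each number within a genotype, and deviations of same-numbered arrays correlated by 0.451 to 0.670 there. Same-numbered arrays of different genotypes, which share a slide but no mouse, also correlated. This was by 0.216 to 0.639 with the same vector and by 0.277 to 0.450 with different vectors. Mouse and slide cannot be told apart within a genotype, so the blocks for the mouse hold both. A gene stands for its brightest tested probe. The fit was tested on simulated data. Alternatives were blocks, scaling, background correction, filters and leaving out arrays. The array files held no mean spot signal, so normexp used median signals.

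Members and lists were chosen with earlier results of these data known. Named are the members, Ppargc1a, per list at most 4 genes called for shTLS averaged, and 5 genes most like Alas1 and Hmox1. The level of the hairpin's target is not reported here. Cd163, Hnf4a and Alas2 belong to both a pathway list and a marker list. The NRF1 core was searched after the shorter motif.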

Additional observations from a re-analysis of the deposited data

How the results depend on the processing

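For shTLS averaged over genotypes, the count of 0 called among the 9 haem genes became 1 with the replicate block, 1 with the mouse as a fixed block and 7 with spike-in scaling, which put the median over all probes at -0.72. In +/+ cells it became 1 with the mouse as a fixed block. It stayed 0 under the other alternatives of these and the remaining comparisons, including each array left out. The other genes called for shTLS, 3 in all, became 15 with the replicate block, 21 with the mouse as a fixed block and 46 with spike-in scaling, and 1 to 4 with arrays left out. Beside the genes named with their blocked values, the replicate block changed no call of a gene named here.

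The sign of several differences depended on the processing, and not all of these differences were small. Among the haem genes, only Uros with spike-in scaling was called where its sign turned. Hccs was higher with the replicate block, where it was called, but lower with spike-in scaling. For shTLS averaged, scaling to the 75th percentile gave 0.0163 for Alas1, 0.194 for Hmox1 and 0.0781 for Blvrb. Spike-in scaling gave -0.697 for Uros (adjusted p = 0.0231), -0.439 for Cpox and -0.374 for Hccs. With arrays left out, Alas1 ran from -0.208 to 0.0423, Uros from -0.022 to 0.179, Hmox1 from -0.403 to 0.367 and Blvrb from -0.126 to 0.0613. Between genotypes averaged over vectors, spike-in scaling gave 0.0789 for Uros and 0.167 for Ppox, and the 75th percentile gave -0.0533 for Urod and 0.00257 for Ppox. With arrays left out, Urod ran from -0.0853 to 0.112, Ppox from -0.126 to 0.121 and the dimmer Fech probe from -0.0259 to 0.0817. For Alas1 with shTLS the genotype difference ran from -0.449 to 0.0317. Hp was also lost with values recomputed from the array files (adjusted p = 0.05).

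Over all probes, calls for shTLS averaged numbered 1942, against 7183 with the replicate block, 8196 with the mouse block, 11553 with spike-in scaling and 719 to 2421 with arrays left out. The lowest of these and of the counts for each genotype came without replicates 1 or 2 of -/- control, 2 or 3 of -/- shTLS, 1 of +/+ control, 2 or 3 of +/+ shTLS and, in +/+ cells, 2 of +/+ control. The share of higher calls was 58.2%, against 73.8% at the 75th percentile and 6.61% with spike-in scaling. In -/- cells 193 calls compared with 1463 and 2006 with these blocks, 117 with normexp, 96 with probes above background on all arrays, and 99 to 230 with arrays left out. In +/+ cells 247 calls compared with 3110 and 3942, 132, 116 and 107 to 316, and with 382 at the 75th percentile and 45 in a fit of both groups alone. In -/- cells the share of higher calls was 95.3%, against 74.3% with spike-in scaling, and in +/+ cells 83.0%, against 54.5%. Between genotypes averaged, 22 calls compared with 126 with the replicate block, 7 with the stricter filter and 17 to 29 with arrays left out. With the control hairpin 20 compared with 43, 4 and 11 to 18 (11 and 13 without replicates 1 and 2 of -/- control), and with 6 in a fit of both groups alone. With shTLS 18 compared with 39, 3 and 11 to 15 (11 without replicate 1 or 3 of +/+ shTLS). Blvrb had adjusted p of 0.423 to 1.00 with arrays left out. The cause of these shifts was not tested.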
